A study of Homo sapiens with 2 samples.

Results

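JUNB binding was examined around 10 genes of the TEAD and YAP axis: the transcription factor genes TEAD1, TEAD2, TEAD3 and TEAD4, the coactivator genes YAP1 and WWTR1 (whose product is TAZ), and the target genes CCN1, CCN2, ANKRD1 and AMOTL2. A peak was assigned to a gene when its summit lay within 50 kb of the RefSeq gene span on GRCh38. This gave 54 of 32550 peaks in untreated cells and 35 of 25739 peaks in etoposide-treated cells, on chromosomes 1 to 22 and X. The peaks came from CUT&RUN, in which a nuclease is tethered to an antibody, here one against JUNB, and cuts out the DNA around the bound protein for sequencing. Both libraries were from IMR-90, an established line of human lung fibroblasts. One group received no treatment and the other received etoposide, a topoisomerase II inhibitor that breaks DNA, at a dose and time not given in the sources used here. Each condition had 1 library, so no difference between conditions could be tested, and every difference below describes these 2 libraries. Peak lists carry no expression values, so the fibroblast label was not checked against marker genes.

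TEAD proteins bind DNA but need a partner to activate transcription. YAP1 and TAZ are those partners. When the Hippo kinases are active, YAP1 and TAZ are phosphorylated and kept out of the nucleus; when cells are spread or under tension they enter the nucleus and join TEAD at enhancers. AP-1, the dimer to which JUNB belongs, often occupies the same enhancers as TEAD, and CCN1, CCN2 and ANKRD1 are the classic genes turned on there.

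The data are the authors' peak lists, and each peak is given below with the number of fragments stacked at its summit, which the deposited fold and p-value together determine. The median was 15 fragments over all untreated peaks and 13 over all etoposide peaks, on median local backgrounds of 1.27 and 0.907 fragments. Relative depth, read from the lowest backgrounds and the smallest peak widths, was 0.836 for the etoposide library, and that list held 0.791 times as many peaks. The lowest backgrounds were 0.482 fragments in the untreated and 0.377 in the etoposide list, and the smallest widths 202 and 189 bp. Relative depth is the ratio of these backgrounds divided by that of the widths. The fragment ratios below have no such division. Intervals are exact 95% intervals for counting error only (Poisson for fragments, binomial for shares). CUT&RUN fragments without molecular identifiers need not be independent molecules. A place with no listed peak had a signal under the threshold of the peak caller, not necessarily no signal.

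Promoter sequences are shown first, because the targets are known for TEAD sites close to their starts and the JUNB peaks described below mostly lay elsewhere. RefSeq promoter windows (GRCh38.p14, 250 bases before to 50 after a start) were matched for 7 of the 10 genes, in 10 windows. The 250 bases before the start are printed 5′ to 3′ on the strand of the gene, and capitals mark the TEAD motif, GGAATG or its reverse complement CATTCC. The CCN2 stretch is chr6:131951373-131951622 (minus strand), that of ANKRD1 chr10:90921088-90921337 (minus), that of YAP1 chr11:102110197-102110446 (plus), and that of WWTR1, for the start nearest to its peak, chr3:149703274-149703523 (minus).
CCN2: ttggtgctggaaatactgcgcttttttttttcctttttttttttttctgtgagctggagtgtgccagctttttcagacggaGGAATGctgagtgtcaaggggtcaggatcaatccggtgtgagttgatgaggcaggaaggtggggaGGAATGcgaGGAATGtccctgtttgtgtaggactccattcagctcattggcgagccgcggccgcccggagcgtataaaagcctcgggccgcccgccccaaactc
ANKRD1: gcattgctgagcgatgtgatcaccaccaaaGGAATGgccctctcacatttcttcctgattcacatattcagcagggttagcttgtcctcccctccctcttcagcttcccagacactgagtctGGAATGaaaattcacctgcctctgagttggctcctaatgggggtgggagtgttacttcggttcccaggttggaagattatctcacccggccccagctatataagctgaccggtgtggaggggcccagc
YAP1: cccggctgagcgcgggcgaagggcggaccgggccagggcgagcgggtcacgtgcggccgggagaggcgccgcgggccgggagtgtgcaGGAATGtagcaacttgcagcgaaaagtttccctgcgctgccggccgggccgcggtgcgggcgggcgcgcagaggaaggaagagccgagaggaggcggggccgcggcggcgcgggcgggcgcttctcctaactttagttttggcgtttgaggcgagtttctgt
WWTR1: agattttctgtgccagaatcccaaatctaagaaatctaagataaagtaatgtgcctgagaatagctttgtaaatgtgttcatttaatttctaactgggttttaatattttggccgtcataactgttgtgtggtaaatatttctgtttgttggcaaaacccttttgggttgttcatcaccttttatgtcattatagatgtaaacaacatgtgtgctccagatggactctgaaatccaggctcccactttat

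The TEAD motif was in 4 of the 10 windows, against 14.0% of all 35116 promoter windows searched on both strands. CCN2 held 3 copies, beginning 169, 104 and 95 bases before the start, and only 45 windows in all (0.128%) held 3 or more. ANKRD1 held 2 copies, beginning 220 and 128 bases before the start. YAP1 held 1 copy, and so did 1 of the 2 AMOTL2 windows. The AP-1 motif, TGAGTCA or its reverse complement TGACTCA, was in 0 of the 10 windows and in 4.95% of all windows. The related TGACGTCA was also in 0 of the 10. These are letter matches and show no binding. Peaks overlapped few of these windows. An untreated peak touched 1 of the 10 (8.90% of all windows were overlapped) and an etoposide peak touched 2 (2.84% of all windows).

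At least 1 peak lay within 50 kb of 9 of the 10 genes in untreated cells and of 9 in etoposide-treated cells, where 72.0% and 62.6% of 19970 protein-coding genes did. Of the 10 genes, 8 had a place bound in both libraries, against 51.1% of all protein-coding genes. A longer gene has a larger window, and gene length was not matched in these shares. The windows of the 10 genes held 3.06 untreated and 1.99 etoposide peaks per 100 kb, and the joined windows of all protein-coding genes held 1.36 and 1.02. TEAD1, YAP1, WWTR1 and CCN2 carried most of the peaks, while TEAD2 had none in either list. More untreated than etoposide peaks were listed at 6 of the 10 genes, against 45.6% of all protein-coding genes. More etoposide peaks were listed at 1 (AMOTL2), and equal numbers at 3 (CCN1, TEAD2 and TEAD4). The 45.6% also counts genes without a peak, and only 72.0% of all protein-coding genes had an untreated one. It is therefore not a like rate for genes that mostly have peaks.

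**Figure D1:**
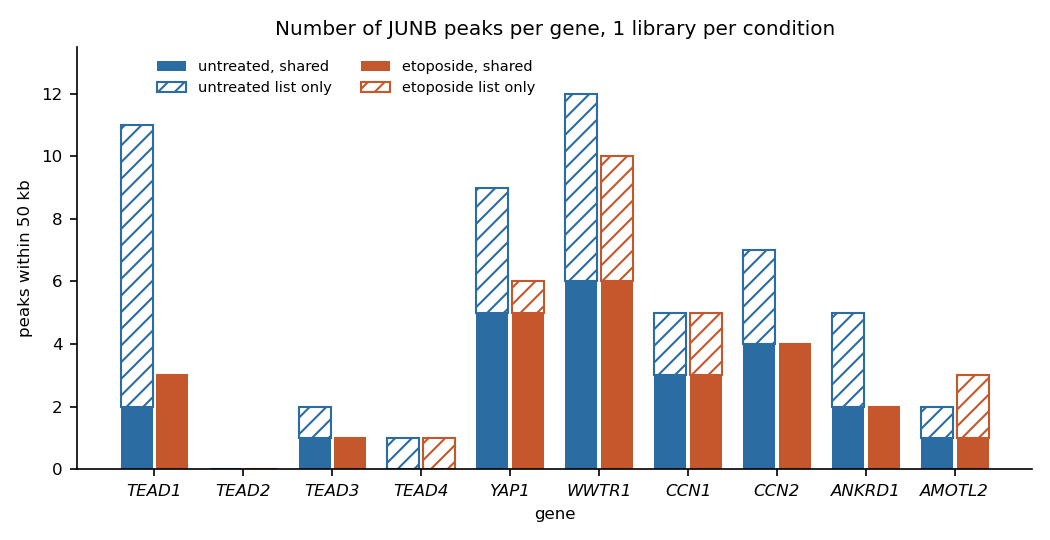
Number of JUNB peaks within 50 kb of each gene (y axis) in the untreated library (blue) and the etoposide library (orange), with solid bars for peaks shared between the lists and hatched bars for peaks of 1 list. TEAD1 has 11 untreated and 3 etoposide peaks, and TEAD2 has none.

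Peaks of the 2 lists that overlapped by 1 bp or more counted as shared. Of the 54 untreated peaks 24 were shared, 44.4% (30.9% to 58.6%), where 51.0% of all untreated peaks were. Of the 35 etoposide peaks 25 were shared, 71.4% (53.7% to 85.4%), where 64.8% of all etoposide peaks were. Both intervals contain the share over the whole list, but they treat the peaks of a gene as independent and may be too narrow. Joined into 64 places, the peaks lay at 24 places found in both lists, 30 found only in untreated and 10 only in etoposide-treated cells. The ratio of etoposide to untreated peaks was 0.648 over the 10 genes and 0.791 over the whole lists. The whole lists include peaks far from genes. The joined windows of all protein-coding genes, a more like set, held 19031 etoposide and 25280 untreated peaks. By role it was 0.357 for the 4 TEAD genes (14 and 5 peaks), where TEAD1 alone held 11 and 3. It was 0.762 for the 2 coactivator genes (21 and 16) and 0.737 for the 4 targets (19 and 14).

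Most summits of the coactivator genes lay inside the gene span, and most summits of the target genes lay outside it. At YAP1 and WWTR1, 20 of 21 untreated and 14 of 16 etoposide summits lay within the gene span. At the 4 targets, which are short genes, 0 of 19 untreated and 1 of 14 etoposide summits did. The gene span was 123 of the 223 kb searched at YAP1 and 208 of 308 kb at WWTR1. At the targets it was 3.19 to 20.1 kb, in windows of 103 to 120 kb. Whether the placing differed beyond gene length was not tested. The assignment by distance leaves some peaks nearer to another gene. For 45 of 54 untreated and 28 of 35 etoposide peaks the nearest protein-coding gene was the one named here.

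**Figure D2:**
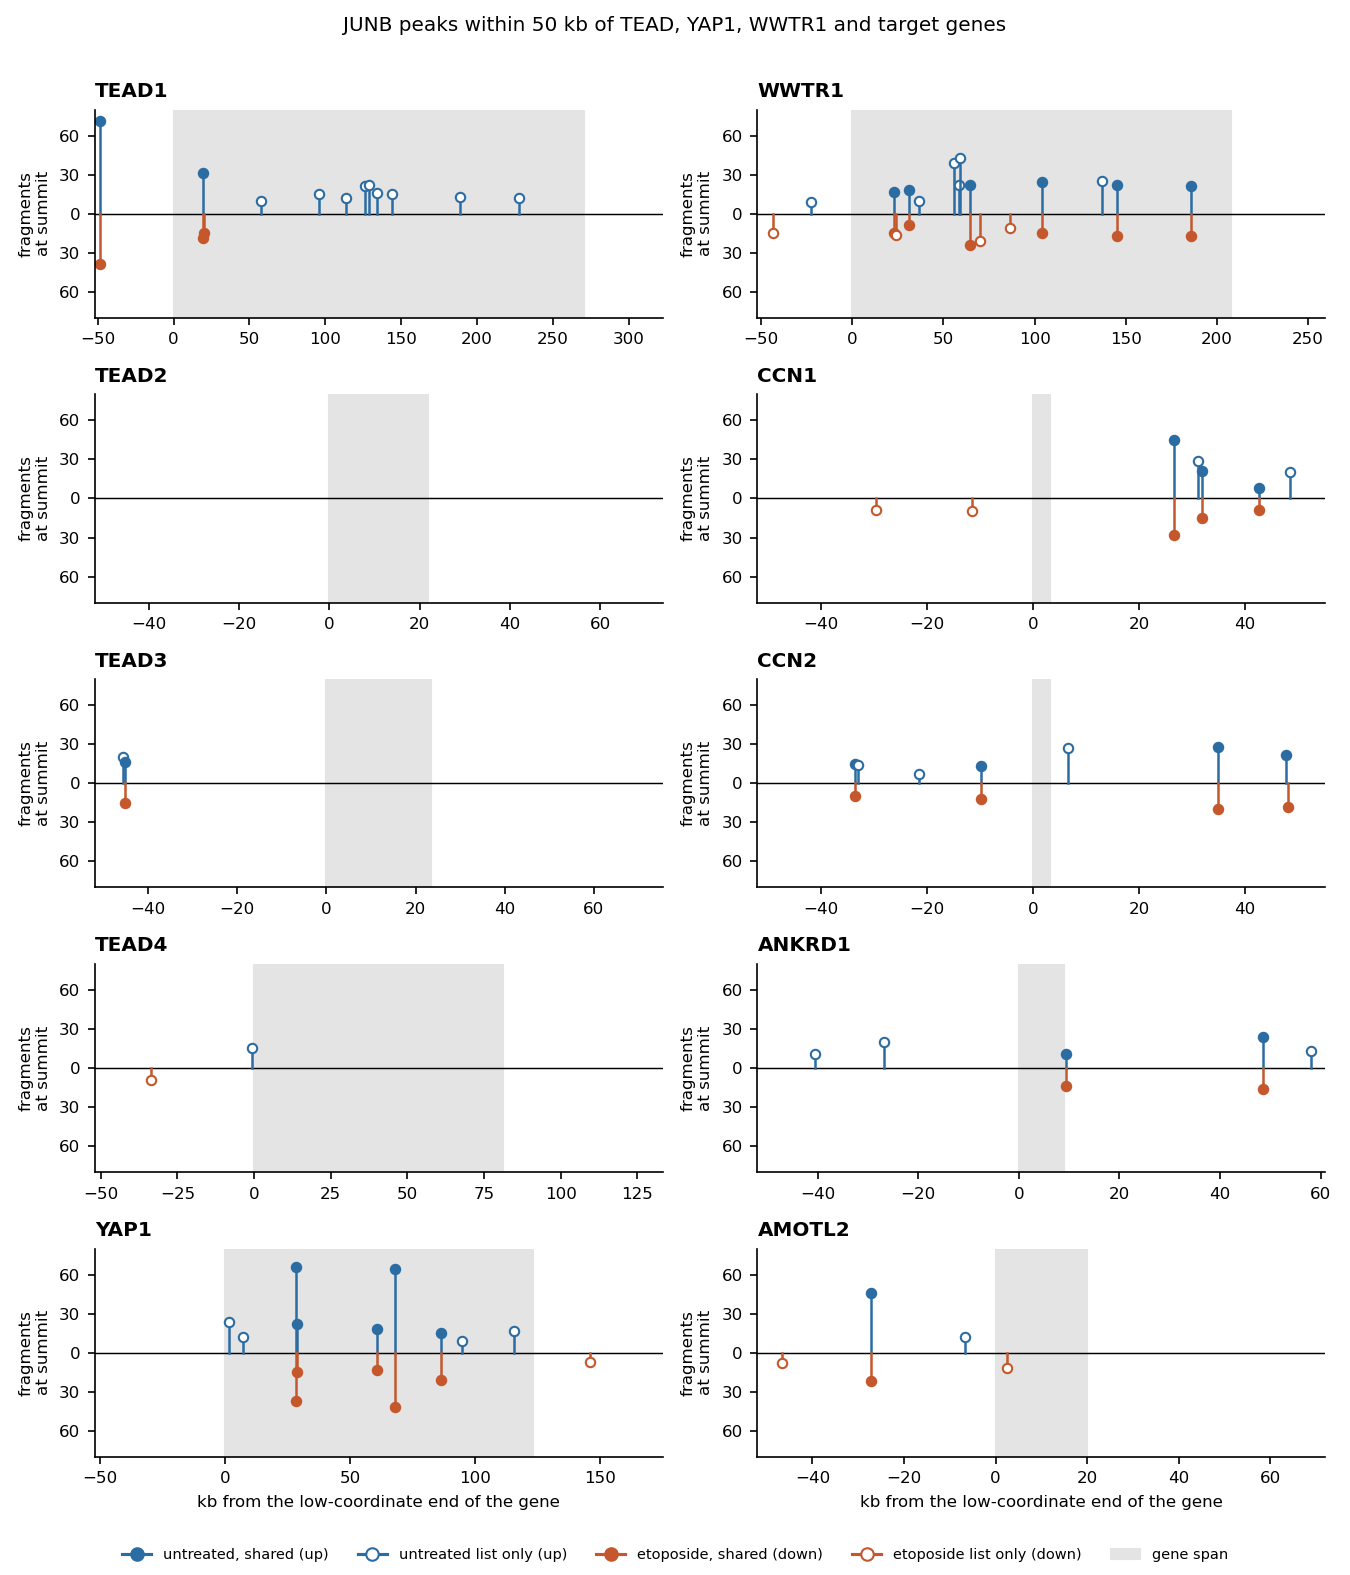
Each stem is a JUNB peak at its summit, in kb from the low-coordinate end of the gene (x axis), with its height the number of fragments at the summit (y axis), untreated upward in blue and etoposide downward in orange. Filled circles are shared peaks, open circles are peaks of 1 list, and grey marks the gene span. The open untreated stems within TEAD1 have no stem below them.

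TEAD1, the TEAD gene with the longest span here (270 kb on chromosome 11), carried 11 untreated and 3 etoposide peaks. Its strongest peak lay 48.6 kb outside the low-coordinate end, at chr11:12625304-12625981 in untreated cells. It had 71 fragments there (55.5 to 89.6) and ranked 91 of 32550. The etoposide counterpart at chr11:12625378-12626094 had 39 fragments (27.7 to 53.3) and ranked 482 of 25739. The place was among the strongest of both lists and in no protein-coding gene, and TEAD1 was its nearest one. A broad untreated peak 19.2 kb into the gene, at chr11:12693374-12694321 with 31 fragments, met 2 etoposide peaks, one with 19 fragments and, with the larger overlap, one with 15.

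The other 9 untreated peaks of TEAD1 all lay inside the gene and had no etoposide counterpart. They ran from 57.5 to 227.5 kb from its low-coordinate end, with 10 to 22 fragments (median 15) on local backgrounds of 0.949 to 2.73. Over all untreated peaks without a counterpart the median was 12 fragments. The nearest etoposide summit was 37.8 kb away from the first of them and 207.7 kb from the last. The strongest, at chr11:12802898-12803215, had 22 fragments (13.8 to 33.3) and ranked 12085. If the etoposide background there stood to the untreated background as in the median shared pair, 0.687, a listed etoposide peak would have needed 6 to 9 fragments. Whether the etoposide signal was just under or far under that number cannot be read from a peak list. These 9 peaks made up 9 of the 30 untreated peaks without a counterpart. Without TEAD1 the shared share of untreated peaks was 51.2% (35.5% to 66.7%) and the peak numbers were 43 and 32.

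TEAD2, TEAD3 and TEAD4 had 0 to 2 peaks in each list, where the median over all protein-coding genes was 2 untreated peaks and 1 etoposide peak. TEAD2 on chromosome 19 had no summit within 50 kb, and the nearest lay 90.9 kb away in untreated and 68.2 kb in etoposide-treated cells. TEAD3 on chromosome 6 had 2 untreated peaks and 1 etoposide peak, at 45.1 to 45.6 kb and nearest to PPARD, which encodes a nuclear receptor for fatty acids. The strongest, at chr6:35427950-35428157 in untreated cells, had 20 fragments (12.2 to 30.9, rank 11999) and no counterpart. The shared one, at chr6:35428278-35428716 in untreated cells, had 16 fragments, and its counterpart at chr6:35428251-35428687 had 15 (8.40 to 24.7, rank 9630). TEAD4 on chromosome 12 had a different single peak in each list. The untreated peak, at chr12:2958454-2958900 with 15 fragments (8.40 to 24.7), lay 0.581 kb outside the low-coordinate end of the gene. The etoposide peak, at chr12:2925546-2925736 with 9 fragments (4.12 to 17.1), lay 33.8 kb away inside TULP3.

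YAP1 on chromosome 11 carried 9 untreated and 6 etoposide peaks, and 5 places were the same in both. Peaks at 2 of these places stood near the top of both lists. The first, 67.9 kb from the start at chr11:102178139-102178493, had 64 fragments in untreated cells (49.3 to 81.7, rank 75) and 42 in etoposide-treated cells (chr11:102178210-102178459, 30.3 to 56.8, rank 159). The second, 28.5 kb from the start at chr11:102138846-102139169, had 66 fragments (51.0 to 84.0, rank 92) and 37 (26.1 to 51.0, rank 423). The summits of the paired peaks were 9 and 47 bp apart. Ranks belong to lists of different lengths and show no change between conditions. A weaker shared peak at chr11:102139280-102139483 lay 0.406 kb from the second, with 22 and 15 fragments.

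The remaining shared places within YAP1 had 18 and 13 fragments at 61.0 kb from the start, and 15 and 21 at 86.4 kb. The last of these was 1 of 4 shared pairs among the 10 genes with more etoposide than untreated fragments. The intervals of its 2 values overlapped (8.40 to 24.7 and 13.0 to 32.1). Nearest to the start, an untreated peak 1.86 kb into the gene, at chr11:102111682-102112487, had 24 fragments (15.4 to 35.7) and no counterpart. The nearest etoposide summit was 26.7 kb from it. The other unshared peaks had 9, 12 and 17 fragments in untreated cells and 7 in etoposide-treated cells.

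**Figure D3:**
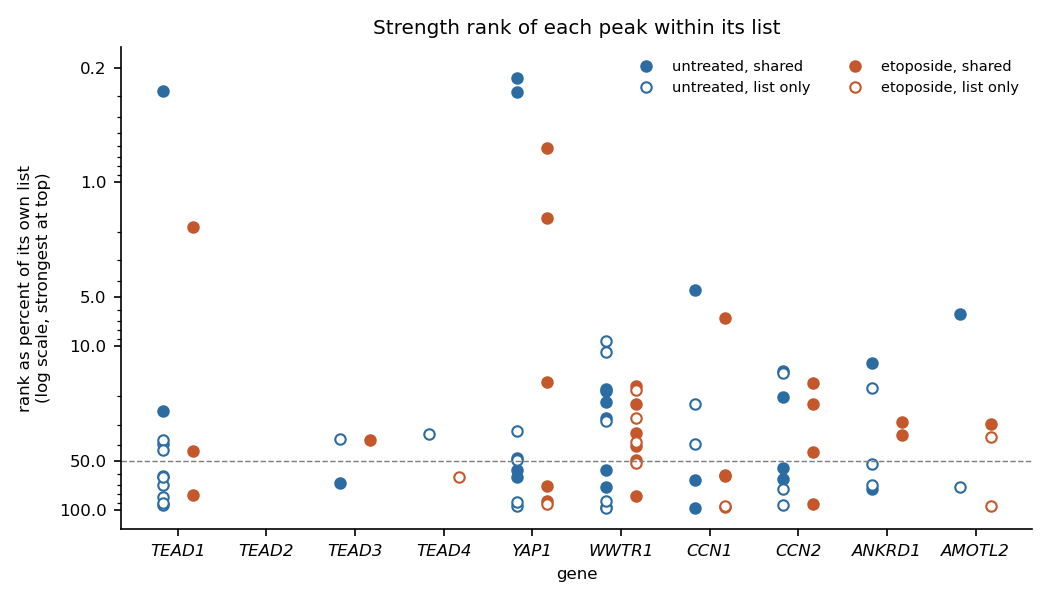
Rank of each peak by -log10 q as a percent of its own list (y axis, log scale, strongest at the top) for each gene, untreated in blue and etoposide in orange, filled where shared and open where in 1 list. The dashed line is the middle of a list. The top peaks of TEAD1 and YAP1 rank 91, 75 and 92 in the untreated list.

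WWTR1 on chromosome 3 had the most peaks, 12 untreated and 10 etoposide, of which 6 in each list were shared. Few protein-coding genes had as many in the same window (1.45% for 12 untreated and 1.29% for 10 etoposide peaks), but few are as long as its 208 kb. One shared place lay close to an annotated start, with both summits downstream of it. At chr3:149702884-149703210 the untreated peak had 21 fragments (13.0 to 32.1) with its summit 229 bases downstream of that start. The etoposide peak at chr3:149702945-149703450 had 17 fragments (9.90 to 27.2), and its summit was 2 bp away. The etoposide peak reached 227 bases into the 300-base promoter window, and the untreated peak did not reach that window. The 250 bases before the start are printed above, and the window held neither motif.

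The 2 strongest untreated peaks of WWTR1 had no etoposide counterpart. They lay within the gene, at chr3:149576075-149576386 with 43 fragments (31.1 to 57.9, rank 3037) and at chr3:149572984-149573347 with 39 (27.7 to 53.3, rank 3528). Their local backgrounds, 5.49 and 4.75, were well above the list median of 1.27. With the background ratio of the median shared pair, a listed etoposide peak would have needed 14 and 12 fragments. Another unshared peak, of 22 fragments, lay between them. The nearest etoposide summit to the stronger one was 5.78 kb away, in the etoposide list's strongest WWTR1 peak, chr3:149581408-149582162. That peak had 24 fragments and was shared with an untreated peak of 22.

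The etoposide list had 4 peaks of its own around WWTR1. The strongest, at chr3:149587083-149587290 within the gene, had 21 fragments (13.0 to 32.1) and lay 5.46 kb from the nearest untreated summit. Another 2 within the gene had 16 and 11 fragments, and the last, of 15 fragments, lay 43.6 kb outside, nearest to TM4SF4. Unshared peaks were thus found in both libraries at WWTR1, with 9 to 43 fragments in untreated and 11 to 21 in etoposide-treated cells.

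CCN1 and CCN2 encode secreted matrix proteins and are the usual readouts of YAP1 and TAZ activity. CCN1 on chromosome 1 had 5 peaks in each list, and 3 places were shared. The strongest lay 23.4 kb beyond the high-coordinate end, at chr1:85607039-85607526, with 45 untreated fragments (32.8 to 60.2, rank 1470). The etoposide counterpart at chr1:85607270-85607516 had 28 (18.6 to 40.5, rank 1719). The untreated peak was the first of a run with 45, 29, 21, 8 and 20 fragments from 23.4 to 45.3 kb beyond the gene, 3 of them shared. Those with 8 and 20 fragments were nearer to ZNHIT6 than to CCN1. The etoposide list alone had 2 weak peaks on the other side of CCN1, inside DDAH1, with 9 and 10 fragments. No summit in either list lay inside CCN1.

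CCN2 on chromosome 6 had 7 untreated and 4 etoposide peaks, and all 4 etoposide peaks were shared. The untreated peak nearest to its start, 3.36 kb upstream at chr6:131954618-131955153, had 27 fragments (17.8 to 39.3, rank 4708) and no etoposide counterpart. The nearest etoposide summit to it was 16.3 kb away. Further upstream lay the strongest peak of each list, both shared. The untreated one, 31.7 kb upstream at chr6:131982902-131983265, had 28 fragments (18.6 to 40.5, rank 4608), and its counterpart had 20. The etoposide one, at chr6:131995894-131996370, had 18 (10.7 to 28.4, rank 4322), and its untreated counterpart 44.6 kb upstream had 22. On the other side, 9.78 kb past the gene, a shared peak had 13 and 12 fragments. Neither list had a peak in the printed CCN2 promoter with its 3 TEAD motifs.

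ANKRD1, which encodes a nuclear and sarcomeric ankyrin repeat protein, was the only one of the 4 targets with a peak within 1 kb of the gene on its start side in both lists. On chromosome 10 the untreated peak at chr10:90921330-90921540 had 11 fragments (5.49 to 19.7), with its summit 0.374 kb upstream of the start. The etoposide peak at chr10:90921313-90921674 had 14 (7.65 to 23.5), with its summit 0.401 kb upstream. The 2 intervals overlapped. These peaks reached 8 and 25 bases into the far end of the promoter window, so the summits lie beyond the printed stretch and its motifs. A stronger shared peak 39.6 kb upstream, at chr10:90960545-90960840, had 24 and 16 fragments. The 3 other untreated peaks, with 11, 20 and 13 fragments, had no counterpart, and the first and second of these were nearest to RPP30.

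AMOTL2, a target that in turn restrains YAP1, had 1 strong shared peak 27.2 kb beyond its low-coordinate end on chromosome 3. At chr3:134327671-134328600 it had 46 untreated fragments (33.7 to 61.4, rank 2075), and at chr3:134327915-134328560 it had 22 etoposide fragments (13.8 to 33.3, rank 7622). This was the lowest fragment ratio of the 24 shared pairs, 0.478, and 7.27% of all shared pairs had a lower one. Its local background also fell, from 5.27 to 2.63, and as fold over background the ratio was 0.846. By fold the lowest pair was instead the WWTR1 peak at chr3:149548103-149548565, at 0.621. The intervals did not overlap at AMOTL2, at the strongest TEAD1 peak or at the YAP1 peak 28.5 kb from the start. These intervals are for fragment numbers that were not adjusted for depth. Of all shared pairs, 14.9% had a lower ratio than that TEAD1 pair and 16.5% a lower ratio than that YAP1 pair. Each of these pairs lay within 2-fold of the median ratio of all pairs. The untreated list alone had a peak 6.76 kb outside AMOTL2 with 12 fragments. The etoposide list alone had a peak inside the gene with 12 fragments, at chr3:134357649-134357996, and a weak one 46.6 kb away with 8.

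At shared places the untreated library usually had more fragments, as it did over the whole lists. Over the 24 shared pairs the median ratio of etoposide to untreated fragments was 0.714 (0.478 to 1.40), and over all 16610 shared pairs it was 0.778. Etoposide fragments were fewer in 20 pairs and more in 4 (YAP1, WWTR1, CCN1 and ANKRD1, 1 each), so that 16.7% had more, against 20.8% of all pairs. Relative to the median of all pairs, 0 of 24 were more than 2-fold higher and 0 more than 2-fold lower, where 3.09% and 1.87% of all pairs were. At the 5 places with at least 40 untreated fragments (1 each at TEAD1, CCN1 and AMOTL2, and 2 at YAP1) the median ratio was 0.561. All 1310 such pairs had a median of 0.625. Local background moved the same way, with a median etoposide to untreated ratio of 0.625 in the 24 pairs and 0.687 in all pairs. As the authors' fold over background, the median ratio was 0.948 in the 24 pairs and 0.976 in all. Neither of the 2 libraries was a control, and whether the background was independent of the peak signal was not checked. The part of background and depth in these ratios was not tested.

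**Figure D4:**
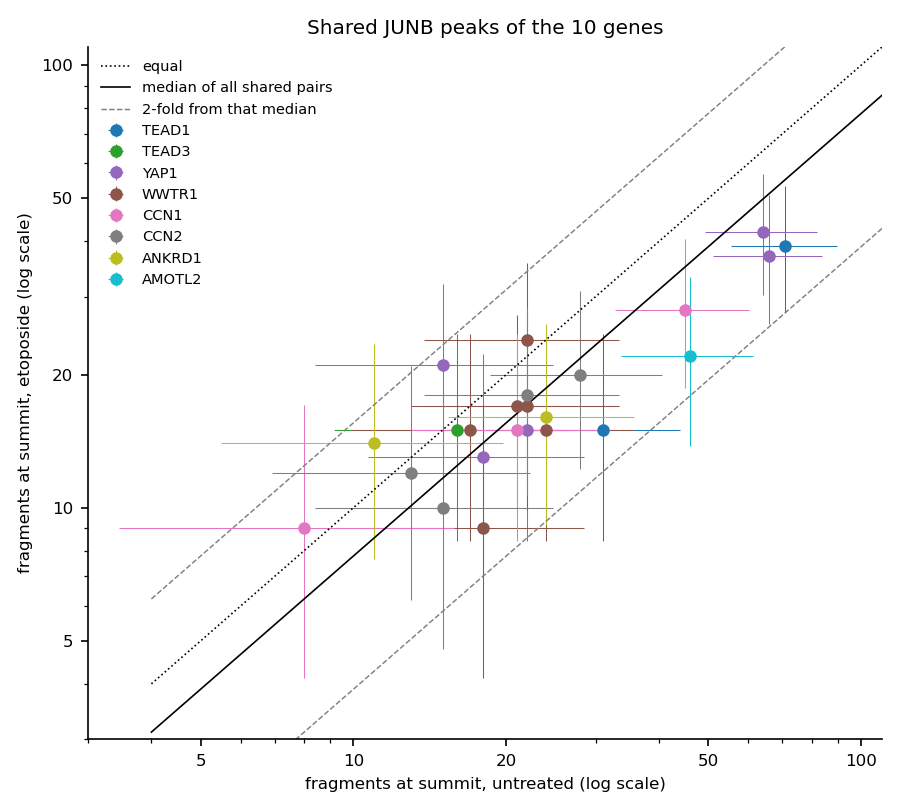
Fragments at the summit in the untreated (x axis) and etoposide library (y axis, both log scales) for the 24 shared pairs, coloured by gene, with 95% Poisson intervals. The dotted line is equality, the solid line is the median ratio of all shared pairs, 0.778, the dashed lines are 2-fold from it, and all 24 points lie between the dashed lines.

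The strength of the peaks was set beside that of the whole lists. Their median -log10 q was 8.71 for untreated peaks (8.56 over the whole list) and 9.06 for etoposide peaks (7.85). Above the middle of their own list were 28 of 54 untreated and 22 of 35 etoposide peaks. Median fragment numbers were 19 and 15, and median local backgrounds were 1.88 and 1.36, each above the values of the whole lists. Shared untreated peaks had a median of 22 fragments and unshared ones 15. In the etoposide list the medians were 16 and 10.5. Over the whole lists the untreated medians were 19 for shared and 12 for unshared peaks, and the etoposide medians 14 and 10.

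Some peaks came in close pairs, in the untreated list at about the rate of the whole list. A second summit of the same list lay within 1 kb for 10 of 54 untreated peaks (18.5%), against 17.7% of that list. The same held for 6 of 35 etoposide peaks (17.1%), against 11.6%. Both peaks of a pair are counted, so these numbers rest on few pairs. The untreated pairs were at TEAD3, YAP1, WWTR1, CCN1 and CCN2, and the etoposide pairs at TEAD1, YAP1 and WWTR1. The YAP1 pair, 28.5 kb from the start, was present in both lists. This count was chosen after its values were seen.

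The other genes of the pathway were counted in the same way. Of 24 Hippo regulators, among them the kinases, their scaffolds and the VGLL cofactors of TEAD, 21 were within 50 kb of an untreated peak (87.5%, against 72.0% of all protein-coding genes) and 20 of an etoposide peak (83.3%, against 62.6%). These shares too were not matched for gene length. Shared peaks were 62 of their 124 untreated and 65 of their 103 etoposide peaks (63.1%), near the 51.0% and 64.8% of the whole lists. FRMD6, a membrane scaffold upstream of the kinases, had 16 and 11 peaks, and its strongest untreated peak had 69 fragments and ranked 67. LATS1, a kinase that phosphorylates YAP1, had 1 untreated and no etoposide peak, while the related kinase LATS2 had 8 in each. LIMD1, which restrains the LATS kinases, had 7 untreated and 10 etoposide peaks. MOB1A, VGLL1 and VGLL2 had none in either list.

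Among 20 further targets, 19 were near an untreated peak and 20 near an etoposide peak, against the same 72.0% and 62.6% of all protein-coding genes. Gene length was not matched here either. Shared peaks made up 51.9% of their 131 untreated and 73.4% of their 94 etoposide peaks (51.0% and 64.8% of the whole lists). CRIM1, a transmembrane protein that binds growth factors, had 14 and 9 peaks. TGFB2, a secreted growth factor, had 6 and 2. FOXF2, a forkhead transcription factor, had 1 etoposide peak and no untreated one. Untreated peaks outnumbered etoposide peaks at 13 of the 24 regulators and 14 of the 20 targets, and were outnumbered at 3 and 2. Over all protein-coding genes, untreated peaks were the more numerous at 45.6%, a share that also counts the genes without a peak. It is not a like rate for these 2 lists, in which most genes had peaks. The genes named from these lists were chosen after their values were seen.

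The 50 kb limit left out a few strong places. Just inside it were an ANKRD1 peak at 49.2 kb with 13 untreated fragments and the TEAD1 peak at 48.6 kb. Just outside were a WWTR1 peak at 50.6 kb with 22 untreated fragments and a shared AMOTL2 peak at 51.9 kb with 41 untreated and 20 etoposide fragments. A shared ANKRD1 peak at 52.6 kb had 43 and 39 fragments and ranked 634 and 215.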

How the data were processed

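CUT&RUN for JUNB was measured in 1 untreated and 1 etoposide library of IMR-90 cells, grouped by the treatment label. The submitters' processing notes name Bowtie2, MACS2 and the builds mm10 and hg38, without roles; settings are not given in the sources used here. The contig names of the peak lists are those of GRCh38 (hg38). The authors deposited, per peak, a fold (ratio) of summit signal over local background, a -log10 p-value, a -log10 q-value, a score and the summit position. The deposited score was not used further. Fragments at the summit, k, and background, b, were solved from fold = (k + 1)/(b + 1) and the Poisson tail. Only whole numbers were tried for k, and the best one came within 0.001 of the deposited -log10 p for 100% of peaks. The solving step was tested on data simulated from the same formula, which cannot show that the caller used it. The pseudocount of 1 and these readings are assumptions about the caller. Gene spans came from RefSeq (GRCh38.p14), and strand and sequence came from its promoter windows. A shared untreated peak was paired with the etoposide peak of largest overlap. The rule for the text was, for each of the 10 genes, the strongest peak in each list and the peak nearest to its start. TEAD2 had no peak, and for TEAD1, TEAD4 and CCN1 distances are from the gene span. Members and gene lists were chosen with earlier results of these data known. Work was done in Python 3.11.15 with SciPy 1.17.1.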

Additional observations from a re-analysis of the deposited data

How the results depend on the processing

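The alternatives were other windows, a -log10 q of at least 5, the 10000 strongest peaks of each list, stricter overlap and, chosen after seeing the data, leaving out TEAD1. The number of peaks followed the window. It was 35 untreated and 19 etoposide peaks at 10 kb, 22 etoposide peaks at 25 kb, and 83 and 54 at 100 kb. Among the 10000 strongest peaks it was 19 and 18, nearly equal, where the whole lists gave 54 and 35. The shared share of etoposide peaks fell to 51.4% when overlap of at least 50% of both peaks was asked for, and that of all etoposide peaks fell to 42.9%. These alternatives differ from the main setting by a smaller or larger window, fewer peaks or stricter overlap. The causes of these moves were not tested. The other shares stayed within the counting intervals of the main values. The number of genes with a peak stayed between 7 and 10 for untreated and 6 and 10 for etoposide. No paired analysis was possible because each condition had 1 library. Unshared peaks had a median of 15 fragments in untreated and 10.5 in etoposide-treated cells, and the part of depth in their being unshared was not tested.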
